A study of Mus musculus with 4 samples.

Results

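The secreted carrier proteins of the fetal liver were followed here through 9 genes, Alb, Afp, Gc, Ttr, Rbp4, Ahsg, Fetub, Ambp and Apoh, of the 22909 genes with a symbol on the array. They were taken by name: every non-control probe whose transcript belongs to one of these genes was kept, which gave 11 of 56605 probes, with 2 probes each for Alb and Ttr and 1 for each of the other 7 genes. Livers came from fetuses at 14.5 days post coitum (dpc) of C57BL/6J dams that ate a control diet (CD) or a high-fat diet (HFD) in gestation. By the study's methods the CD supplied 4.3% of its energy as fat, 19.2% as protein and 67.3% as carbohydrate, and the HFD 60% as fat, 20% as protein and 20% as carbohydrate. The values given for the CD do not add up to the whole of its energy. Total RNA of fetal liver was hybridized to 4 single-colour arrays, 2 per diet, and the labels name no treatment besides the diet. The sex tag of all 4 samples reads female, without saying whether this is the dam or the fetus. How many fetuses or dams stand behind an array is not given in the sources used here, so p-values measure only the spread between these 4 samples, which may be technical. The question of the comparison was how the diet of the dam alters gene expression in the fetal liver.

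Carrier proteins are made by hepatoblasts and hepatocytes and leave the cell through the secretory pathway to transport hydrophobic or charged cargo in plasma. Alpha-fetoprotein is the typical plasma protein of the fetus, and albumin takes its place as the main plasma protein after birth. Albumin, alpha-fetoprotein and the vitamin D-binding protein encoded by Gc are products of one gene family, whose genes lie together on mouse chromosome 5, with Alb and Afp side by side. Transthyretin (Ttr) carries thyroid hormone and holds retinol-binding protein (Rbp4) in the circulation, fetuin-A (Ahsg) and fetuin-B (Fetub) belong to the cystatin superfamily, Ambp encodes the precursor of alpha-1-microglobulin and bikunin, and Apoh encodes a phospholipid-binding glycoprotein.

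FOXA transcription factors bind the control regions of many liver genes. The bases before the start of 2 pairs of neighbouring family members, Alb with Afp and Ahsg with Fetub, are shown because each holds the FOXA core near its start. They are from RefSeq (GRCm38.p6), 150 bases each, 5′ to 3′ on the strand of the gene and ending 1 base before the annotated start. Capitals mark TGTTTNC, which in Alb lies on the other strand and so reads in reverse complement.
Alb, chr5:90460720-90460869, plus strand: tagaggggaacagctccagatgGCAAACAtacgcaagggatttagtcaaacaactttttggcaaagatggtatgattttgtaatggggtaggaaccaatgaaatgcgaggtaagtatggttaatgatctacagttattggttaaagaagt
Afp, chr5:90490564-90490713, plus strand: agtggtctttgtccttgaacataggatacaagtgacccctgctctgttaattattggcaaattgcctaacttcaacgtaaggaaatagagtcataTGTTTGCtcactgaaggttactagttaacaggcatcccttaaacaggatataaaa
Ahsg, chr16:22891865-22892014, plus strand: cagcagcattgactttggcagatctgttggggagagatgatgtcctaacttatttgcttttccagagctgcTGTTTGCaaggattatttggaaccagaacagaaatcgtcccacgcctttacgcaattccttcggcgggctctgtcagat
Fetub, chr16:22918232-22918381, plus strand: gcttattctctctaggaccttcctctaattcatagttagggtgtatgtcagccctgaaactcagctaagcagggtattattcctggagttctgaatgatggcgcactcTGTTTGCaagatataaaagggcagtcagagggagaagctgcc

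RefSeq windows were matched for 8 of the 9 genes, in 10 windows, and the 250 bases before the start were searched on both strands for 2 motifs chosen with these windows in view. TGTTTNC, a FOXA core, was found in 8 of the 10 windows, of 7 genes (Alb, Afp, Ahsg, Fetub, Rbp4, Ambp and Apoh), and is in 17.8% of all 32851 windows of this length. It began 128 bases before the start of Alb, 55 before that of Afp, 79 before that of Ahsg and 42 before that of Fetub. TATAAA was found for Afp, Fetub and Rbp4 and is in 12.4% of all windows. These matches describe letters in a window and are not evidence of binding.

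The level of a probe is given below as its log2 intensity after subtracting the array's 75th percentile, so that a level of 0 is the intensity at that percentile, which was 1575 and 1056 on CD replicates 1 and 2 and 1449 and 1350 on HFD replicates 1 and 2. CD replicate 2 was the dimmest array, with 65.4% of probe spots well above background, against 67.1% to 70.0% on the others. There was 1 slide and 1 scan for all samples. For all 11 probes of the carrier proteins the scanner software marked the signal as well above background on each of the 4 arrays, and none was saturated, the brightest value being 48.4% of the saturation value. Because probes differ in how strongly they bind, the level of one probe says nothing of the amount of transcript relative to another.

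Maternal HFD consumption was not followed by a detectable difference in any of the 9 carriers. By limma, 0 of 11 probes were past the cutoffs of p 0.05 and 2-fold in either direction, where 0.293% of all 41332 tested probes were higher and 0.477% lower. At an unadjusted p of 0.05 alone the count was also 0 of 11, against 3.34% of all tested probes, and no probe on the array passed after adjustment (0%). The unadjusted p of the 11 probes ran from 0.418 to 0.958, and all had a Benjamini-Hochberg adjusted p of 1.00. Fold changes lay between -0.09 and 0.22 on the log2 scale, 6 above 0 and 5 below. The median over the brightest probe of each gene was -0.01, against 0.02 over all genes. With 2 arrays a group the 95% confidence intervals were wide, from 0.473-fold for Ttr at the low end to 1.88-fold for the same probe at the high end. Changes of a size inside these intervals are not excluded with this number of arrays.

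In the albumin family, the brighter Alb probe gave levels of 8.14 and 9.06 with CD against 8.53 and 8.54 with HFD. Both HFD arrays fell between the CD arrays, and the log2 fold change was -0.07 ± 0.34 (SE, n = 2 and 2). The second Alb probe, for the same transcript, gave 7.70 and 8.12 with CD against 7.89 and 8.01 with HFD, a log2 fold change of 0.04 ± 0.21 (SE). The 2 Alb probes therefore had the same order of arrays, but CD replicate 2 exceeded CD replicate 1 by 0.92 on the brighter probe and by 0.42 on the other. Afp had levels of 8.32 and 8.82 with CD against 8.49 and 8.63 with HFD. It had the fold change nearest to 0 of all 11 probes, at -0.01 ± 0.24 (SE, n = 2 and 2), with a 95% interval of 0.642-fold to 1.53-fold. Gc had levels of 4.99 and 5.60 with CD against 5.40 and 5.29 with HFD, and its log2 fold change was 0.05 ± 0.26 (SE). The HFD arrays again lay within the CD range.

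The difference between Afp and Alb on the same array is not changed by a scaling that subtracts a single value from each array. Quantile normalization is not of that kind and can change it. Set against the brighter Alb probe and counted from CD replicate 1, Afp was lower by a log2 difference of -0.41 on CD replicate 2, and of -0.22 and -0.09 on the HFD arrays. Set against the second Alb probe, the same differences were 0.09, -0.02 and -0.01. The balance of Afp and Alb thus differed between the CD arrays with one Alb probe and far less with the other, and the HFD arrays lay within the CD range with the first and at most 0.02 below it with the second. The mean difference between the diets in this balance was 0.06 with the first probe and -0.06 with the second, against SDs between the CD arrays of 0.29 and 0.06.

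For the retinol and thyroid hormone carriers, the brighter Ttr probe gave levels of 5.82 and 6.83 with CD against 6.31 and 6.16 with HFD. This was the widest range among the 11 probes, and the log2 fold change was -0.09 ± 0.37 (SE, n = 2 and 2). The second Ttr probe gave 1.34 and 1.92 with CD against 1.89 and 1.81 with HFD. Its log2 fold change of 0.22 ± 0.25 (SE, n = 2 and 2) was the one farthest from 0, and it had the other sign from the brighter probe of the same transcript. Rbp4 had levels of 7.51 and 8.26 with CD against 7.89 and 7.81 with HFD, with a log2 fold change of -0.04 ± 0.30 (SE). Rbp4 and the brighter Ttr probe, whose products circulate as a complex, kept their order over the arrays, and their difference on the same array changed by -0.26 on CD replicate 2 and by -0.12 and -0.04 on HFD replicates 1 and 2, counted from CD replicate 1.

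Of the fetuins, Ahsg had levels of 7.63 and 8.39 with CD against 8.01 and 7.93 with HFD, a log2 fold change of -0.05 ± 0.30 (SE). Fetub was the dimmest of the 11 probes, with intensities of 235 and 202 with CD against 274 and 228 with HFD. Its levels were -2.19 and -1.80 with CD against -1.82 and -1.997 with HFD, a log2 fold change of 0.09 ± 0.21 (SE). Both HFD arrays lay between the CD arrays for both genes, which are near neighbours on mouse chromosome 16. Ambp had levels of 7.43 and 7.87 with CD against 7.83 and 7.73 with HFD, a log2 fold change of 0.13 ± 0.22 (SE, n = 2 and 2). Apoh had levels of 4.87 and 5.65 with CD against 5.42 and 5.19 with HFD, a log2 fold change of 0.04 ± 0.31 (SE). The HFD livers again fell inside the range of the CD livers for both genes.

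**Figure D1:**
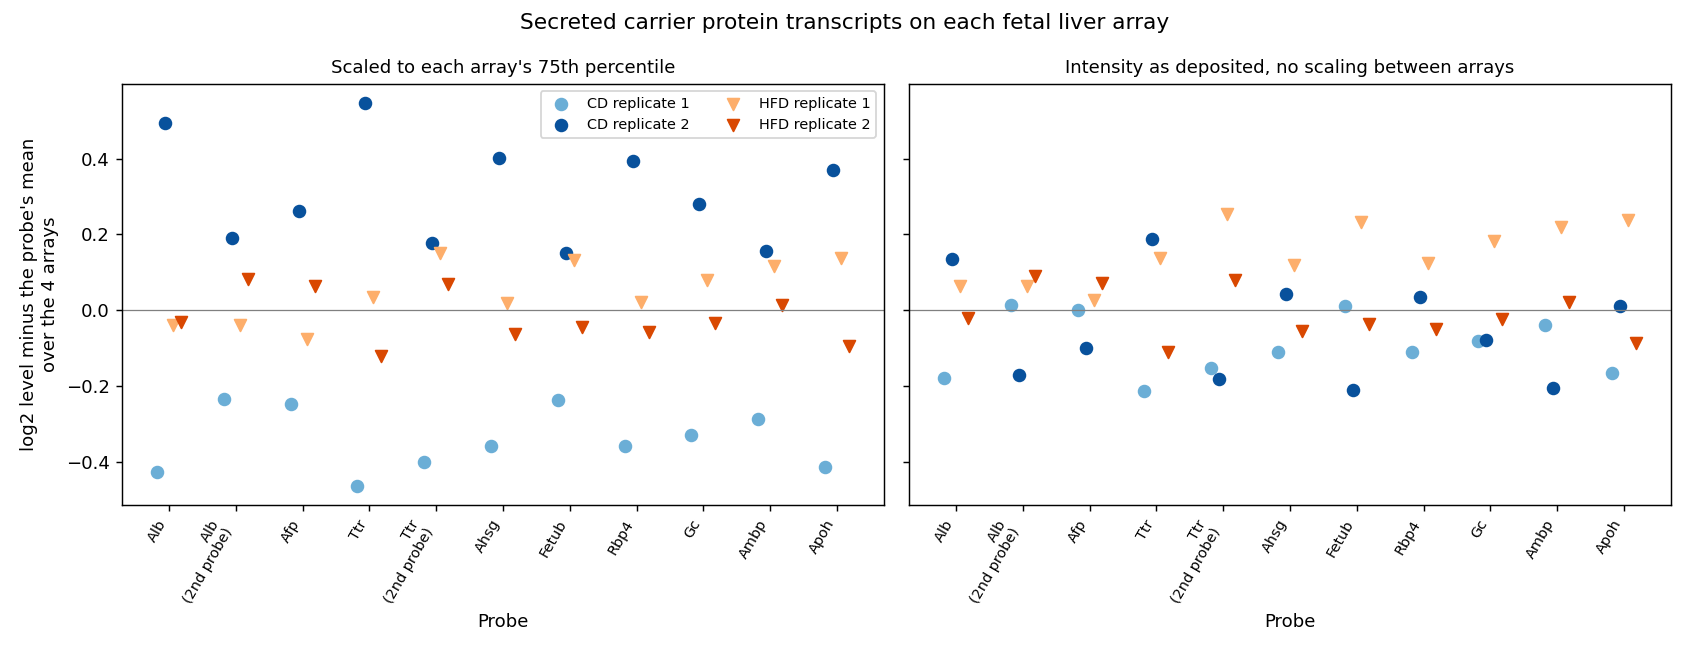
Levels of the 11 carrier protein probes on each array, as the log2 level minus the mean of the probe over the 4 arrays, scaled to the 75th percentile of each array (left) and as deposited (right). Circles are the 2 CD arrays and triangles the 2 HFD arrays. On the left CD replicate 1 is lowest and CD replicate 2 highest for all 11 probes, and on the right for 2.

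The carriers were alike in the order of their arrays. CD replicate 1 was lowest, CD replicate 2 highest and both HFD arrays lay between them for 11 of 11 probes, an order found for 21.2% of all tested probes. The HFD and CD arrays did not overlap for 0 of 11 probes, against 30.7% of all tested probes. CD replicate 2 exceeded CD replicate 1 by 0.39 for Fetub to 1.01 for the brighter Ttr probe. The median over the brightest probes of the 9 genes was 0.75, against 0.14 over those of all genes and 0.03 over all tested probes. Among all tested probes this median was 0.36 at levels of 6 to 8 and 0.45 at levels of 8 to 10. Those levels held 5 and 2 of the 11 carrier probes. HFD replicate 2 minus HFD replicate 1 ran only from -0.23 to 0.14. The SD between the CD arrays was 0.27 to 0.71 and that between the HFD arrays 0.01 to 0.16, the CD value being the larger for 11 of 11 probes and for 75.6% of all tested probes. For the carriers, the overlap of the diets and the larger CD value both follow from the order above.

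How far the CD livers stood apart depended on the scaling. Without any scaling between arrays, the highest intensity of a probe was 1.12 to 1.36 times the lowest, CD replicate 2 was above CD replicate 1 for 6 of 11 probes, and the median difference over the 11 was 0.00. The order described above was then found for 2 of 11 probes, Alb (the brighter probe) and Ttr (the brighter probe), and for 1.01% of all tested probes. Scaled to 6 E1A control probes, an alternative chosen after seeing the data, the order was found for 6 of 11 probes, of Alb, Ttr, Ahsg, Rbp4, Gc and Apoh, and for 8.41% of all tested probes. CD replicate 2 was then above CD replicate 1 for 11 of 11 probes, by 0.14 to 0.76, with a median of 0.36 against -0.22 over all tested probes. After quantile normalization the order was found for 9 of 11 probes and for 20.7% of all tested probes, and the difference between the CD arrays ran from 0.00 to 0.70.

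Whether the diets overlapped moved with the scaling too. With the E1A scaling 2 of 11 probes did not overlap, of Ttr (the second probe) and Ambp, against 28.2% of all tested probes. After quantile normalization Ambp alone did not, against 30.4% of all tested probes. With no scaling, the second Alb probe, Afp, the second Ttr probe, Gc and Ambp did not overlap, 5 of 11 probes against 20.5% of all tested probes. In each of these the HFD arrays were the higher ones. With no scaling the median of all tested probes was itself shifted by 0.14 toward the HFD arrays, and the median of the 9 genes was 0.10.

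The E1A control probes bind a control transcript, and the sources used here do not say at which step it was added. Counted from CD replicate 1 and without scaling, their mean was -0.36 on CD replicate 2, and 0.05 and -0.14 on the HFD arrays. The 75th percentile of the arrays differed more, by -0.61, -0.15 and -0.24. The difference between the CD arrays also moved with brightness: its unscaled median was -0.73 among the dimmest tested probes (log2 intensity 4 to 6) and -0.16 among the brightest (log2 intensity 18 to 20). The brightest E1A probe, left out of the scaling, had intensities of 252436 and 223777 with CD against 263562 and 239288 with HFD, and so fell by 0.17 on CD replicate 2, less than the 0.28 to 0.46 by which the other 6 fell. Set against tested probes of like brightness, in steps of 2 on the log2 intensity, all 11 carrier probes were above the median of their step and 7 above its 90th percentile. These 7 were Alb (the brighter probe, unscaled difference 0.31), Gc (0.00), both Ttr probes (0.40 and -0.03), Rbp4 (0.14), Ahsg (0.15) and Apoh (0.18). The other 4, Afp (-0.10), the second Alb probe (-0.18), Fetub (-0.22) and Ambp (-0.17), were not. The part of brightness in the order of the arrays was not tested.

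**Figure D2:**
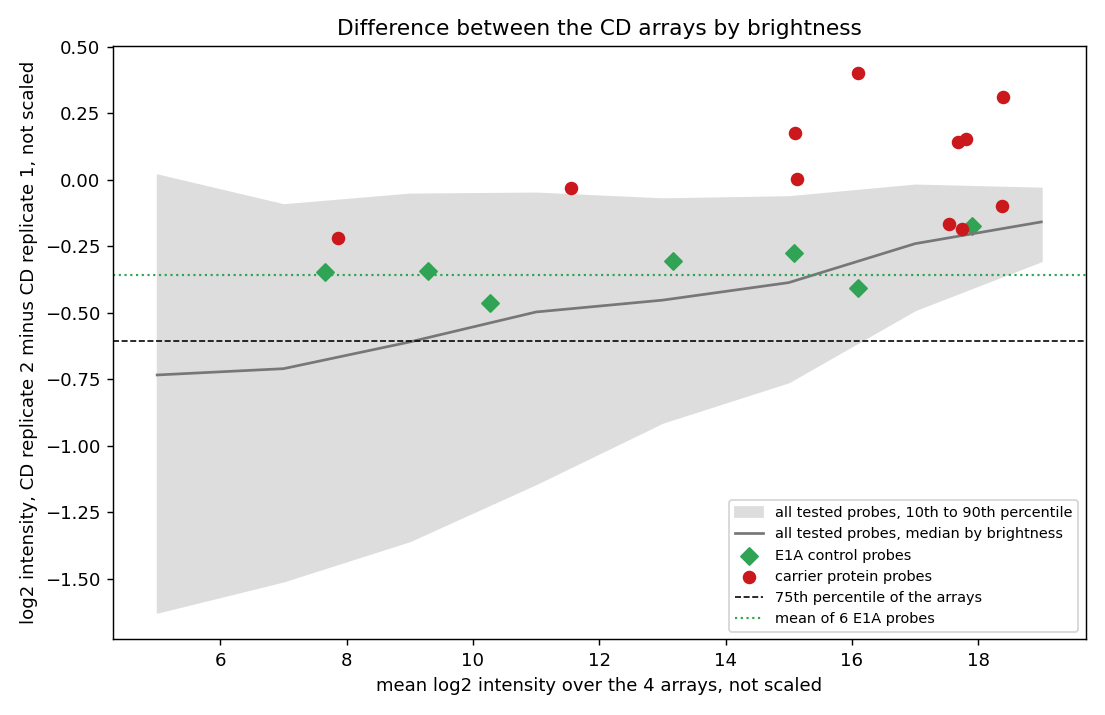
Unscaled log2 intensity of CD replicate 2 minus CD replicate 1 (vertical axis) by mean log2 intensity over the 4 arrays (horizontal axis), for the 11 carrier protein probes, the 7 E1A control probes and, as a median line with a band from the 10th to the 90th percentile, all tested probes. The dashed line is the 75th percentile of the arrays (-0.61) and the dotted line the mean of 6 E1A probes (-0.36). All 11 carrier probes lie above both lines.

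The sign of the diet comparison turned with the CD array it was made against. Without CD replicate 1, the log2 fold change was below 0 for 11 of 11 probes, from -0.59 to -0.07, and without CD replicate 2 it was above 0 for 11 of 11, from 0.24 to 0.51. Both counts were fixed by the order of the arrays given above, so only the sizes are new here. In the first case 4 of 11 probes had an unadjusted limma p under 0.05, Alb (the brighter probe, -0.53), Ttr (the brighter probe, -0.59), Ahsg (-0.43) and Rbp4 (-0.41), where 20.8% of all probes did, and the lowest adjusted p of the 11 was 0.222. In the second case 2 did, Alb (the brighter probe, 0.39) and Ttr (the second probe, 0.51), against 14.8% of all probes, with a lowest adjusted p of 0.335. No probe reached 2-fold in either case. Without HFD replicate 1 the values were -0.16 to 0.18, and without HFD replicate 2 they were -0.08 to 0.26. In fits without an array, the lone array of its diet is assumed to vary like the others.

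**Figure D3:**
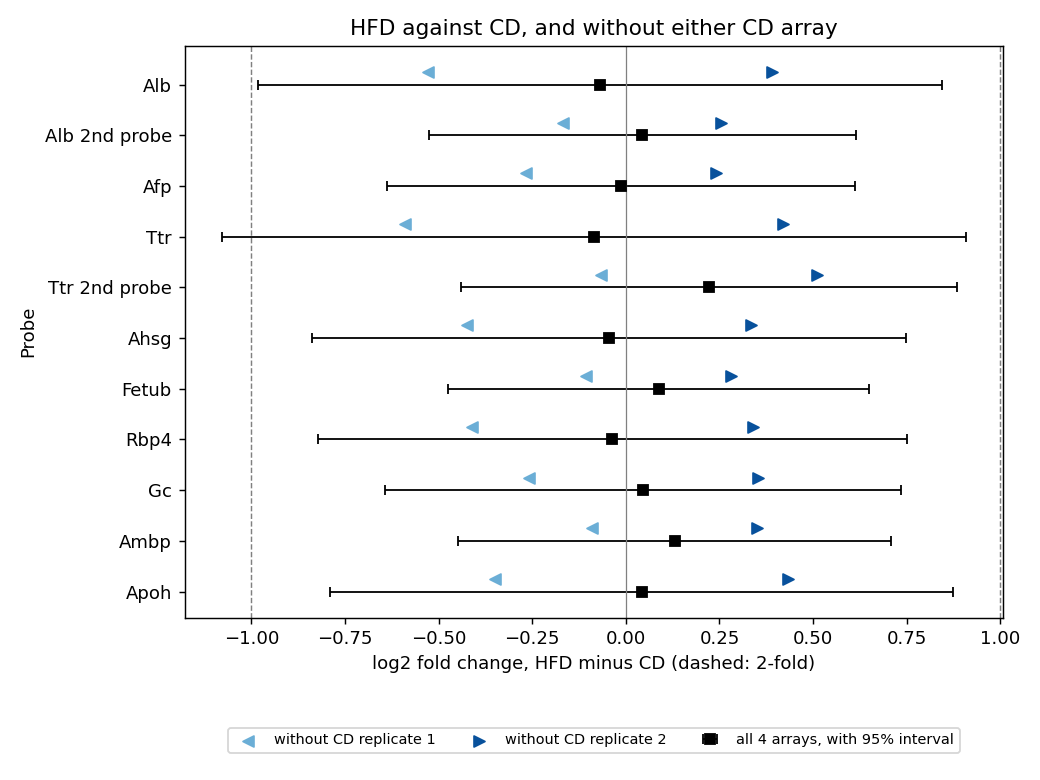
Log2 fold change of HFD over CD for the 11 probes (squares, all 4 arrays, with 95% confidence intervals from limma), and without CD replicate 1 or CD replicate 2 (triangles). All squares lie between -0.09 and 0.22, all left-pointing triangles below 0 and all right-pointing triangles above 0, and no point is past the dashed 2-fold lines. The signs of the triangles are fixed by the order of the arrays.

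Other plasma proteins that hepatocytes secrete had medians close to those of the carriers. Of 64 genes listed 63 were measured, 59 of them tested, and 0 were past the cutoffs. Their median log2 fold change was 0.01 and their median CD replicate 2 minus CD replicate 1 was 0.69, above 0 for 61 of 63 genes, and 51 of the 63 had CD replicate 1 lowest and CD replicate 2 highest, an order that 30.1% of all 22909 genes and 24.7% of the 16595 genes detected on all arrays had. Afm, the fourth member of the albumin family and the carrier of vitamin E in plasma, had levels of 2.59 and 3.09 with CD against 3.10 and 2.90 with HFD. Its log2 fold change was 0.17 ± 0.24 (SE). Trf, the iron carrier transferrin, had levels of 8.03 and 8.40 with CD against 8.05 and 8.18 with HFD, a log2 fold change of -0.10 ± 0.21 (SE). The genes with the widest fold changes of this list were Lrg1 at 1.12, which was highest on HFD replicate 2 (levels -2.27 and -1.78 with CD, -1.65 and -0.16 with HFD, an unadjusted limma p of 0.101), and Plg, the plasminogen gene, at -0.41.

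Among transcription factors of hepatoblasts and of the promoters of the carriers, none changed past the cutoffs. All 25 listed were tested and 0 were past the cutoffs. CD replicate 1 was lowest and CD replicate 2 highest for 5 of 25, against 30.1% of all genes. Their median log2 fold change was 0.11 and their median CD replicate 2 minus CD replicate 1 was 0.10. Hnf4a, a nuclear receptor that activates many hepatocyte genes, had levels of 3.91 and 4.01 with CD against 4.32 and 4.27 with HFD. The diets did not overlap, as for 30.7% of all tested probes. Its log2 fold change of 0.34 ± 0.16 (SE) had an unadjusted limma p of 0.096. Foxa2 (0.12), Cebpa (0.19) and Zbtb20 (-0.02), a repressor of Afp, had small log2 fold changes. Zhx2, a further repressor of Afp, was well above background on 2 CD arrays and 1 HFD array, with levels of -4.89 and -4.70 with CD against -5.20 and -5.49 with HFD. Its measured log2 difference of -0.55 had an unadjusted limma p of 0.043, and was -0.095 with a p of 0.612 after normexp background correction. The limma p was also over 0.05 after quantile normalization (0.0695), with median scaling (0.080) and with no dim filter (0.0594), among other settings. It stayed under 0.05 with the 75th percentile of detected probes (0.0267), with the E1A scaling (0.0259) and in the deposited table (0.045), among others. Nr0b2 also had an unadjusted p under 0.05 and was above background on 0 of 4 arrays, so no fold is given.

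Receptors, salvage proteins and cargo enzymes of the carriers were measured for 26 of 26 genes, of which 24 were tested and 0 were past the cutoffs. Their median log2 fold change was 0.10, and 5 of 26 had the order of the carriers, against 30.1% of all genes. Cubn, the cubilin gene, had levels of -0.25 and 0.74 with CD against 1.37 and 0.41 with HFD, a log2 fold change of 0.64 ± 0.49 (SE). Lrp2, the megalin gene, whose product takes up retinol- and vitamin D-binding protein together with cubilin, had levels of -0.20 and 0.45 with CD against 1.01 and 0.19 with HFD, a log2 fold change of 0.47 ± 0.38 (SE). Both were highest on HFD replicate 1, and without that array Cubn was at 0.16 and Lrp2 at 0.061. Without CD replicate 1, Cubn was at 0.15 and Lrp2 at 0.14. Mep1a, a subunit of the protease meprin, which fetuins inhibit, had a log2 fold change of 0.55, the retinol-binding protein receptors Stra6 and Stra6l 0.20 and 0.10, and Fcgrt, the receptor that salvages albumin, -0.07.

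Markers of some other cell types also differed between the CD arrays. Over all genes the median CD replicate 2 minus CD replicate 1 was 0.14, and 30.1% had the order of the carriers. Because these are bulk samples, fewer cells of a type and less RNA per cell cannot be told apart. The 12 stellate and mesenchymal markers were all tested with 0 past the cutoffs, and 11 of 12 were lower on CD replicate 2 than on CD replicate 1, with a median of -0.92. Their summed level was 8.97 and 8.003 with CD against 8.49 and 8.62 with HFD, the reverse order of the carriers, whose summed level was 10.31 and 11.02 with CD against 10.66 and 10.64 with HFD. Tcf21 (0.27) and Pdgfrb (-0.26) had the widest log2 fold changes between the diets. The 8 megakaryocyte markers, of which 0 were past the cutoffs, had a median CD replicate 2 minus CD replicate 1 of 0.79, above 0 for 8 of 8, with the order of the carriers in 6 of 8 genes and summed levels of 6.12 and 7.005 with CD against 6.78 and 6.73 with HFD. Their widest log2 fold changes were those of Gp6 (0.45) and Gp9 (0.24). Erythroid markers, measured for 22 of 24 genes and well above background for all 22, with 0 past the cutoffs, had a median of 0.43 between the CD arrays, above 0 for 18 of 22, with the order of the carriers in 11 of 22 genes, and summed levels of 11.35 and 11.67 with CD against 11.53 and 11.69 with HFD. The embryonic globin genes Hba-x (1.17) and Hbb-bh1 (0.60) had the widest log2 fold changes among them. Hba-x had levels of 5.60 and 3.59 with CD against 5.27 and 6.27 with HFD, so that the diets overlapped, and leaving out one CD array took its difference to 0.16 (replicate 2) or 2.17 (replicate 1). Hbb-bh1 had levels of 4.998 and 5.32 with CD against 5.62 and 5.90 with HFD. Its unadjusted limma p of 0.041, under 2-fold, rose to 0.0575 with median scaling, 0.053 with no dim filter and 0.0579 with the replicate number as a block.

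Macrophage markers had a median of 0.44 between the CD arrays, above 0 for 11 of 12, with the order of the carriers in 7 of 12 genes and summed levels of 5.74 and 6.10 with CD against 6.06 and 6.06 with HFD, and Marco (0.40) and Cd68 (-0.24) had the widest fold changes. Endothelial markers had a median of 0.16, near the 0.14 over all genes, and were above 0 for 8 of 12. The order of the carriers was found for 2 of 12 endothelial markers, against 30.1% of all genes. Their summed levels were 5.07 and 5.13 with CD against 5.09 and 5.17 with HFD, and Stab1 (-0.26) and Pecam1 (-0.25) had the widest fold changes. In the macrophage list 0 of 11 tested genes were past the cutoffs, and in the endothelial list 0 of 12. The part of these cell types in the order of the carriers was not tested.

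Other tissues also transcribe carrier genes, Ttr in the choroid plexus and Afp, Ttr and Rbp4 in the visceral endoderm of the yolk sac. All 9 yolk sac markers were detected on every array, 0 were past the cutoffs, and their summed level was 4.88 and 5.48 with CD against 5.40 and 5.18 with HFD, which is the order of the carriers. Between the CD arrays their median was 0.42, above 0 for 7 of 9. That order was found for 1 of 9 single genes, against 30.1% of all genes. The median log2 fold change of the yolk sac markers between the diets was 0.40, above 0 for 8 of 9, against -0.01 for the carriers. Rhox5 (0.60) and Cubn had the widest. Of 10 choroid plexus markers 8 were well above background on all arrays, Kl was on none, 0 were past the cutoffs, and the summed level was 4.99 and 5.28 with CD against 5.40 and 5.40 with HFD, with Folr1 (0.44) and Lmx1a (0.43) the widest. The choroid plexus markers had a median CD replicate 2 minus CD replicate 1 of -0.18, above 0 for 4 of 10. The order of the carriers was found for 1 of these 10 genes, against 30.1% of all genes.

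Markers of gut and pancreas were lower on CD replicate 2 than on CD replicate 1 for 11 of 12 genes, with a median of -0.81 and summed levels of 4.67 and 4.10 with CD against 4.09 and 4.64 with HFD. Gcg (-0.91) and Ptf1a (-0.54) had the widest log2 fold changes, and 0 of 11 tested genes were past the cutoffs. Trophoblast and decidual markers were measured for 17 of 18 genes, of which 9 were tested and 0 passed after adjustment. At the cutoffs, 0.477% of all tested probes were lower, and 2 genes of the list were, Psg17 and Psg28. Both were well above background on 2 CD arrays and 1 HFD array, and their measured log2 differences of -3.05 and -2.64 were -1.53 and -0.96 after normexp background correction. Prl8a9 (-4.43) and Psg21 (-3.999) had the widest differences but were left out of the test by the CV filter on the linear signal. With that filter on the log2 signal, 14 genes of the list were tested and 7 were lower past the cutoffs, Tpbpa, Prl3b1, Prl7d1, Prl8a9, Psg17, Psg21 and Psg28. The share of all probes lower past the cutoffs with that filter is not given here. The limma adjusted p there was 0.9999 for Prl8a9, Psg17, Psg21 and Psg28. The summed level of the list was 6.61 and 6.88 with CD against 6.31 and 6.56 with HFD. Of its genes 1 of 17 had the order of the carriers, against 30.1% of all genes. The part of these tissues in the carriers' levels was not tested either.

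**Figure D4:**
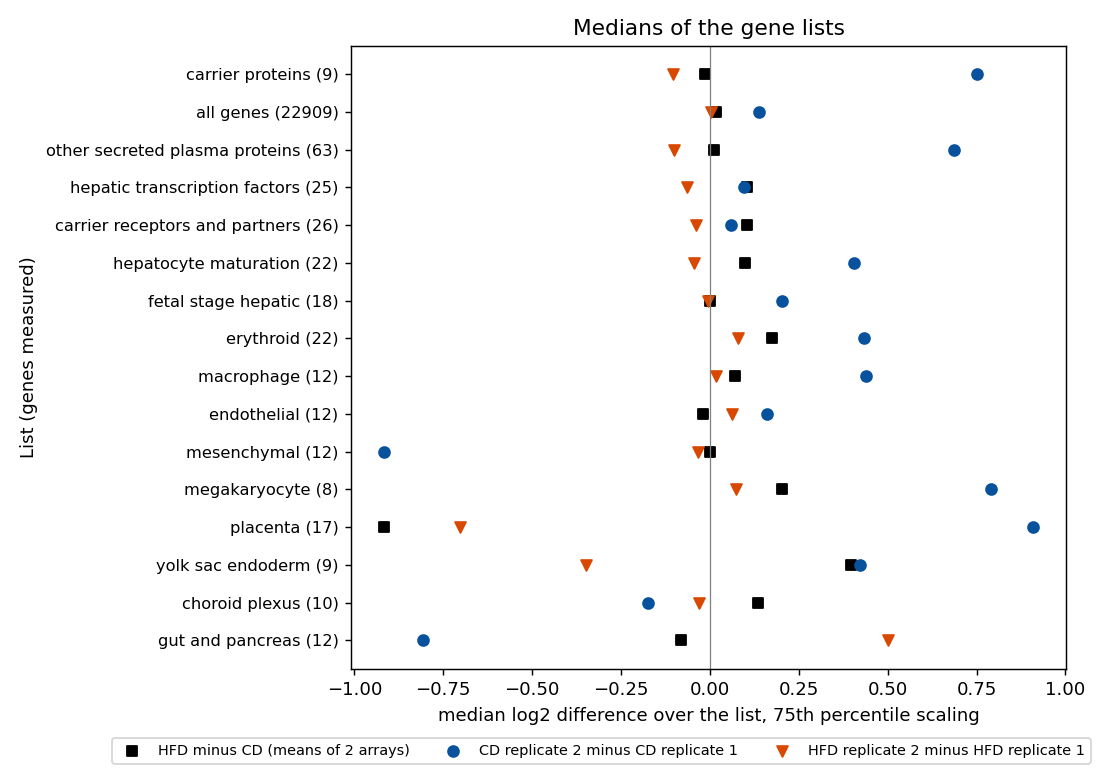
Median log2 difference over the genes of each list (horizontal axis, scaled to the 75th percentile), for HFD minus CD (squares), CD replicate 2 minus CD replicate 1 (circles) and HFD replicate 2 minus HFD replicate 1 (triangles), with the number of genes measured beside each list. For the carrier proteins the squares lie at -0.01 and the circles at 0.75, for the other secreted plasma proteins at 0.01 and 0.69, and for the mesenchymal markers at 0.00 and -0.92.

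The genes of nearest profile over the arrays were not among the listed plasma proteins. Centred on its mean, the average of the 9 genes was -0.35 and 0.34 with CD against 0.05 and -0.04 with HFD. The 5 genes outside the carriers that lay closest to it by root mean square distance, among 16586 genes well above background on all 4 arrays, were Atp6v1e1, a subunit of the vacuolar proton pump (distance 0.00658), Hacd2, which acts in the elongation of fatty acids (0.00998), Becn1, an autophagy gene (0.0125), S100a8, a calcium-binding protein of myeloid cells (0.0141), and Etnk2, an ethanolamine kinase (0.0144). The carriers themselves lay at distances of 0.03 to 0.13 from their own mean, and 14.6% of the genes compared lay closer than the farthest carrier. With 4 arrays such likeness rests on 4 values per gene.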

How the data were processed

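Cy3-labeled cRNA from fetal liver RNA was hybridized by the authors to SurePrint mouse arrays and read with Agilent Feature Extraction 11.0.1.1 (version from the submitters' processing notes). The deposited intensity of each spot is background-subtracted and not scaled between arrays. The deposited flags (well above background, saturated, outlier) are scores, 0 or 1. A normalized signal table was deposited too, in which each array is the intensity divided by 1 constant, within 0.1% for 100% of 41171 probes. No build is used for the probes, which were named through transcripts in RefSeq (GRCm38.p6).

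Here the log2 intensity was taken, replicate spots were averaged without outliers, and each array was scaled by subtracting its 75th percentile over non-control probes. As in the study's methods, a probe under the 20th percentile on any array was left out. A probe with a CV over 50% under both diets was left out too, with the CV taken on the linear signal where the methods name the log scale, which leaves 41332 probes (41614 with the CV of the log2 signal). HFD was compared with CD in limma 3.58.1 (R 4.3.3; lmFit, eBayes, no covariates, tested on simulated data) over all tested probes with Benjamini-Hochberg adjustment, at p 0.05 and 2-fold. With 2 arrays a diet, exact permutation reaches p = 0.333 at the lowest, so it was not used. The number of arrays limits the precision. Gene lists use the brightest probe of a gene, and summed levels are the log2 of the summed linear levels of the genes well above background on all 4 arrays. Other steps used Python 3.11.15 with pandas 2.3.3, numpy 2.4.6 and, for plots, matplotlib 3.10.9.

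The members and the 14 gene lists were chosen with earlier results of these data known. Named were every member probe, the 2 genes of each list with the widest fold change among those well above background on all arrays, 12 genes linked to the members by textbook knowledge (2 genes that the rule names are not reported here), and the 5 genes of nearest profile. Psg17, Psg28, Nr0b2 and Cyp7a1 were named after their values were seen. Alternatives were quantile, median, detected-probe 75th percentile, E1A and no scaling (the last 2 chosen after seeing the data). Others were normexp (offset 50, on the median brightness), the deposited table, other dim and CV filters and the mean over the probes of a gene. The unpaired t-test (also in Welch's form), a replicate block and leaving out each array were run too. The study's methods name the t-test in their general statistics and no test for the arrays. No spot was saturated, so leaving such spots out was not run.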

Additional observations from a re-analysis of the deposited data

How the results depend on the processing

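Under every alternative run that has a test, 0 of 11 carrier probes passed the cutoffs, also by the unpaired t-test and Welch's version. The lowest unadjusted limma p of a carrier under any alternative was 0.017, without CD replicate 1. The median of the 9 genes was -0.01 and moved from -0.06 after quantile normalization to 0.10 without scaling, and from -0.35 to 0.35 when arrays were left out. The sign of single values was not stable. Of 200 values of the carriers under alternatives, 173 kept their sign and 27 turned. Alternatives that changed only the filter, the test or the block left every fold change as it was. Part of the 173 was therefore fixed in advance, and the count understates how often signs turned where they could.

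Leaving out each array gave ranges of -0.53 to 0.39 for Alb, -0.17 to 0.255 for its second probe, -0.27 to 0.24 for Afp, -0.59 to 0.42 for Ttr, -0.066 to 0.51 for its second probe, -0.43 to 0.33 for Ahsg, -0.11 to 0.28 for Fetub, -0.41 to 0.34 for Rbp4, -0.26 to 0.35 for Gc, -0.090 to 0.35 for Ambp and -0.35 to 0.43 for Apoh. Among the other genes named, the ranges that crossed 0 were -0.29 to 0.26 for Zbtb20, -0.14 to 0.83 for Cyp3a41a, -0.14 to 0.62 for Gp9, -0.085 to 0.42 for Afm, -0.22 to 0.42 for Stra6l, -1.07 to 0.245 for Plg, -0.55 to 0.079 for Cd68, -0.40 to 0.94 for Tcf21, -0.16 to 1.03 for Lmx1a, -0.29 to 0.089 for Trf, -0.29 to 0.69 for Stra6, -0.21 to 0.065 for Fcgrt and -0.056 to 0.30 for Foxa2.

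Without scaling the sign turned for Alb (0.042), Afp (0.098), Ttr (0.026), Ahsg (0.066), Rbp4 (0.075), Trf (0.012), Zbtb20 (0.095) and Fcgrt (0.040). Quantile normalization turned Gc (-0.059) and Apoh (-0.056), median scaling Afp (0.0042) and Zbtb20 (0.00093), normexp Afp (0.0045), and the mean over both probes Ttr (0.068). The causes of these turns were not tested. With the CV filter on the log2 signal, 7 in place of 2 trophoblast and decidual genes were lower past the cutoffs (unadjusted limma p), of 14 in place of 9 tested. Single calls also moved. Lrg1 passed the cutoffs without scaling (1.23), with the block (1.12) and without HFD replicate 1 (1.86), which also brought in Pck1 (1.04), Hba-x (1.67), Lmx1a (1.03) and Gcg (-1.32). Plg (-1.07), Mep1a (1.00) and Hba-x (2.17) passed without CD replicate 1, Pck1 (1.14) and Gcg (-1.60) without CD replicate 2, and Cubn (1.13) and Ptf1a (-1.07) without HFD replicate 2. Cyp7a1 and Psg28 were lost with normexp (0.26 and -0.96) and, like Psg17, with both t-tests, and Psg28 also without CD replicate 2 (-1.78). Cyp7a1, Psg17 and Psg28 were also left out of the test where only probes well above background on every array were kept.

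With the replicate number as a block, 0 of 11 carrier probes passed, the second Ttr probe had a log2 fold change of 0.22 (an unadjusted limma p of 0.474), and 435 of all probes passed against 318 without it. The labels do not say whether the numbers pair the arrays. The replicate differences of CD and HFD correlated at r = -0.10 over 41332 probes, which does not settle it. Precision is limited by 2 arrays a diet, and by the difference between the CD arrays, which changed with brightness.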

Other observations

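Lists not yet described cover the stage of the liver. Of 22 genes that rise as hepatocytes mature, 21 were tested and 1 was higher past the cutoffs, Cyp7a1, the rate-limiting enzyme of bile acid synthesis. It was well above background on 0 of 2 CD arrays and 2 of 2 HFD arrays (limma adjusted p = 1.00). The HFD mean level of -5.09 was 1.62-fold above a floor of -5.79 set in place of the CD levels, whose measured mean was -6.63. This fold depends on the floor and is not a lower bound, because the difference was smaller after normexp background correction. The call was lost after normexp background correction, where the log2 difference was 0.26, and with the unpaired t-test, also in Welch's form. Cyp7a1 was not tested where only probes well above background on every array were kept. The median of the list was 0.10, with Pck1, a gluconeogenic enzyme (0.77), and Arg1, of the urea cycle (0.46), the widest among detected genes. Its summed level was 9.30 and 9.78 with CD against 9.54 and 9.57 with HFD. In this list 9 of 22 genes had the order of the carriers, against 30.1% of all genes. Of 18 genes of the fetal stage all were tested and 0 were past the cutoffs, with a median of 0.00. Lin28b, a fetal RNA-binding protein (0.42), and Cyp3a41a (0.35) had the widest fold changes. The order of the carriers was found for 8 of 18 genes, against 30.1% of all genes.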
